A study of Mus musculus with 4 samples.

Results

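Galectins are small lectins that bind beta-galactoside sugars on glycoproteins. They leave cells without a signal peptide, act inside and outside the cell, and cross-link glycans on cell surfaces and matrix. In tumours they are known for effects on T cells, macrophages, vessels and adhesion. Described here are 5 genes, taken by symbol from the 55472 entries of the gene table. Lgals1 encodes a dimeric galectin of mesenchymal and other cells, Lgals3 the chimera-type galectin, and Lgals7 a galectin of stratified and myoepithelial epithelium. Lgals9 encodes a tandem-repeat galectin. Lgals3bp is no galectin: it encodes a secreted glycoprotein of the scavenger receptor cysteine-rich family that binds galectins.

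Single cells came from 4 mammary tumour samples of 3 female mice on an FVB background, aged 13 to 14 weeks. In every mouse the transgene MMTV-PyMT expressed an oncogene in the mammary epithelium, from the promoter of mouse mammary tumour virus. Each also carried K14-Cre, driven by a human keratin 14 promoter, and the Cre-responsive reporter Rosa-tdTomato. Tumour 1 was drawn from multiple glands of mouse 1 and tumour 2 from an inguinal gland of mouse 2. Tumour 3, thoracic, and tumour 4, inguinal, both came from mouse 3. No sample was free of tumour, so the comparisons below are between cell types within tumours. Values are unique molecular identifiers (UMIs), or CPM, the usual scaling of a gene's UMIs by the total of the same cells. Fitted fold changes also scale each sum by a factor that CPM does not carry, so they can differ from ratios of CPM. These factors ran from 0.804 in macrophages to 1.19 in endothelial cells, both of mouse 1. P-values come from sums per mouse and take part of their spread from all genes, most of all in the comparisons within a gate, which leave 1 or 2 residual degrees of freedom.

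The libraries held 8434 to 9580 barcodes and 20281799 to 39370565 UMIs, with median depths between 1922.5 and 3281 UMIs. Pairs of libraries shared 96 to 129 barcode sequences, at most 1.37% of the smaller library. Cells were gated on other genes than the 5. The luminal gate took at least 3 UMIs of Krt8 and Krt18 together, the basal gate 3 of Krt5 and Krt14, and the fibroblast gate 10 of Col1a1 and Col3a1. The endothelial gate took at least 2 of Cdh5 and Pecam1, the macrophage gate 5 of C1qa and C1qb, and the T gate 2 of Cd3g and Trbc2. A cell in 1 non-luminal gate was placed there whatever its luminal keratins. This gave 938 basal, 1512 fibroblast, 625 endothelial, 3005 macrophage, 355 T and 20581 luminal cells, while 163 cells met several non-luminal gates and 8959 met none. Lists of 6 further markers each checked the gates. The basal list summed to 916, 627, 1217 and 562 CPM in the basal gate of tumours 1 to 4, but also to 518 to 948 CPM in the fibroblast gate. Cells of the basal gate also met the luminal gate in 53.0% of cases, and in 89.1% in tumour 2, where its median depth was 6183 UMIs.

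On GRCm38, Lgals1 lies at chr15:78926725-78930465 and Lgals3 at chr14:47367751-47386160, both on the plus strand. Lgals7 lies at chr7:28863853-28866284 on the plus strand, and Lgals9 (chr11:78962974-78984946) and Lgals3bp (chr11:118392751-118402092) on the minus strand of another chromosome. All are protein-coding. Lgals1-ps1, a pseudogene entry of Lgals1, held 4 UMIs in luminal cells, 1 in macrophages and 0 in the other gates.

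The promoters of Lgals9 and Lgals3bp are shown first, because these were the genes that were higher in luminal cells with interferon-induced RNA, as described further on. The sequences are from RefSeq on GRCm38.p6, on the gene's strand, from 250 bases before to 50 bases after the listed start. The window of Lgals9 is chr11:78984875-78985174 and that of Lgals3bp chr11:118401910-118402209, both on the minus strand. Capitals mark letters that match GAAANNGAAA, a core of interferon-stimulated response elements, or the shorter AAANNGAAA, on either strand. Every match to the longer motif is also a match to the shorter one, which was chosen after the sequences had been seen.
Lgals9: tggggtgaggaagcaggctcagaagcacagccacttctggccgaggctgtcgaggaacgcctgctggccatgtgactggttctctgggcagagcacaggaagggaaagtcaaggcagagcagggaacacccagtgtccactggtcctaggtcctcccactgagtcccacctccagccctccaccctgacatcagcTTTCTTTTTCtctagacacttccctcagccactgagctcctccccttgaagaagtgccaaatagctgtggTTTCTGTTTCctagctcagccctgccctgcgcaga
Lgals3bp: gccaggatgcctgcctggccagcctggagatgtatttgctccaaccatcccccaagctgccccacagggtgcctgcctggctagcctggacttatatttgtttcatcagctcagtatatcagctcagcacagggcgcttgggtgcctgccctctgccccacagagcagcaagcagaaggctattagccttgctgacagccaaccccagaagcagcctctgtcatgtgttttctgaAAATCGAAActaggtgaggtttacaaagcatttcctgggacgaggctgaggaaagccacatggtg
Lgals9 held 2 matches to the longer motif on the opposite strand, the first beginning 55 bases before the start and the other after it. Lgals3bp held 1 match to the shorter motif, beginning 15 bases before the start, and none to the longer one. The Lgals3 and Lgals7 promoters held neither motif. Their windows were chr14:47373610-47373909 and chr7:28864136-28864435, which lie inside the gene spans given above and not at their first base. The table had an entry for 4 of the 5 genes and none for Lgals1. Of 32851 promoters in the table, 3.44% held the longer motif and 10.6% the shorter one. A match of letters is a description and not a bound site.

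The gate with the highest level differed between the genes. Lgals1 was highest in fibroblasts, Lgals7 in basal cells and Lgals9 on average in macrophages. Lgals3 was highest in macrophages and T cells, and Lgals3bp in macrophages and fibroblasts. In edgeR's quasi-likelihood test on counts summed per mouse and gate, with p adjusted by Benjamini-Hochberg over 10315 genes, all 5 genes passed the count filter. Of the 5, 4 were higher and 0 lower in basal than in luminal cells, where 4.78% of all genes were higher and 2.46% lower. In fibroblasts 3 were higher and 1 lower, against 26.6% and 22.4% of all genes. Among endothelial cells 1 was higher and 2 were lower, against 17.9% and 15.1%. Macrophages had 4 higher and 1 lower, against 23.3% and 20.4%, and T cells 2 higher and 1 lower, against 9.68% and 6.92%. In fibroblasts and macrophages, where so many genes were called, such a count over 5 genes says little. The 4 basal calls were all lost where the fit did not pair the sums by mouse. Where basal cells that also met the luminal gate were left out, Lgals1 was not called and Lgals3 was at -0.83. The median log2 fold change of the 5 was 0.84 in basal, 1.10 in fibroblast, -0.20 in endothelial, 2.50 in macrophage and 0.77 in T cells, while the median over all genes lay between -0.08 and -0.01.

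**Figure D1:**
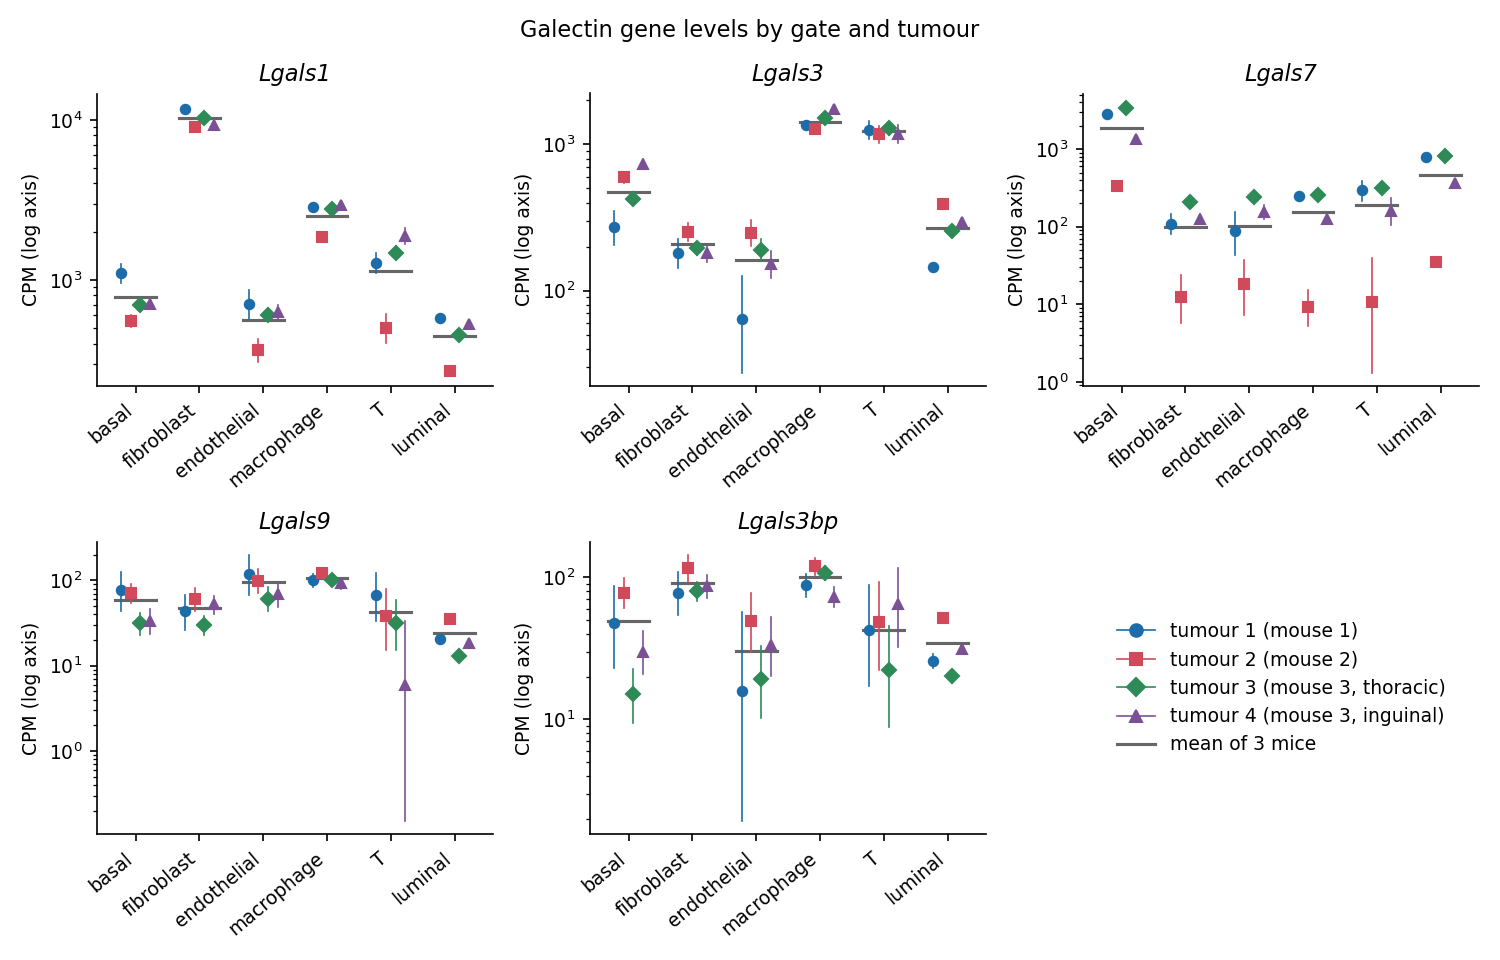
Level of each gene (CPM, log axis) by gate, with 1 point per tumour, 95% Poisson intervals for counting error, and a bar for the mean of 3 mice. Lgals1 in fibroblasts lay between 8987 and 11723 CPM, above every other gate, and Lgals7 in tumour 2 lay below the other tumours in every gate.

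**Figure D2:**
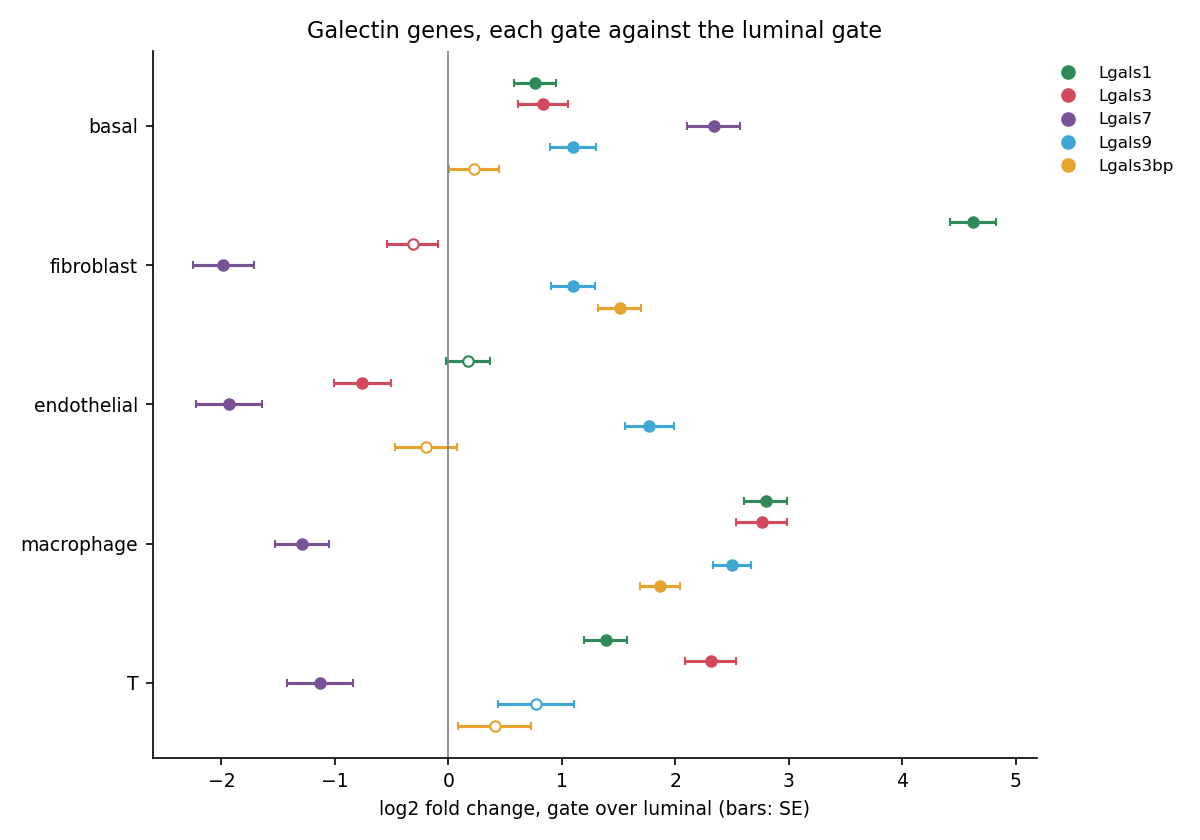
Fitted log2 fold change of each gene in the 5 non-luminal gates over the luminal gate, with standard errors; filled points had an adjusted p under 0.05. Lgals7 was higher in the basal gate and lower in the other 4, and Lgals1 reached 4.62 in fibroblasts.

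Lgals1 was the gene with the widest span of mean CPM between gates. Fibroblasts held 11723, 8987, 10276 and 9334 CPM in tumours 1 to 4, against 581, 269, 455 and 527 CPM in luminal cells. Every fibroblast value lay above every luminal one, and the 4 fibroblast values lay close together. The means were 10207 ± 1392 CPM in fibroblasts and 448 ± 161 CPM in luminal cells (SD, n = 3 mice), a log2 fold change of 4.62 ± 0.21 (SE, adjusted p = 4.57e-15), or 24.6-fold. After thinning of each cell to 1000 UMIs, 97.6% to 98.9% of fibroblasts still held a Lgals1 UMI, against 22.4% to 39.5% of luminal cells. At the deposited depth, luminal cells with a Lgals1 UMI were 55.6% to 71.1%.

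Macrophages came next for Lgals1. They held 2839, 1866, 2781 and 2941 CPM in tumours 1 to 4, against the luminal values above, with no overlap and tumour 2 the lowest. The log2 fold change over luminal cells was 2.80 ± 0.19 (adjusted p = 1.24e-11). T cells averaged 1132 ± 574 CPM, a log2 fold change of 1.39 ± 0.19 over luminal cells (adjusted p = 7.49e-06), and were at 499 CPM in tumour 2 but 1279 to 1876 CPM in the other tumours. Basal cells averaged 784 ± 281 CPM, which was 0.76 ± 0.19 higher on the log2 scale (adjusted p = 0.0107). In tumours 1 to 4 the fibroblast marker list summed to 138, 11.5, 418 and 51.1 CPM in basal cells, against 17.4, 9.67, 53.4 and 29.4 CPM in luminal cells. It summed to 9920 to 10907 CPM in the fibroblast gate, close to the Lgals1 level there, and to 30.6, 168, 91.8 and 154 CPM in the T gate. The part of fibroblast RNA in the Lgals1 levels of these gates was not tested. The basal call was lost without tumour 1 (adjusted p = 0.143) and where cells of several gates were left out (0.322). Endothelial cells averaged 563 ± 178 CPM and were not called against luminal cells (0.17 ± 0.19, adjusted p = 0.550). In the order fibroblast, macrophage, T, basal, endothelial, luminal, each neighbour differed from the next by the same fit except endothelial and luminal cells. Calls near the middle of the order depended on the settings. The T to basal step (adjusted p = 0.0332) held in 2 of 3 mice and was called in 10 of 17 fits, the reported one included, and was lost without tumour 1 (0.0896), tumour 4 (0.0670) or mouse 3 (0.796). The basal to endothelial step (0.0342) was called in 12 of 17 and was lost without tumour 1 (0.242). Of all genes, 43.2% differed between fibroblasts and macrophages, 17.0% between macrophages and T cells, 13.5% between basal and T cells and 22.8% between basal and endothelial cells. For the other neighbours used below the shares were 26.6% for fibroblast and endothelial, 28.8% for endothelial and macrophage, and 35.2% for basal and fibroblast cells, and 31.1% for fibroblast and T cells.

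Lgals3 was a gene of macrophages and T cells. Macrophages held 1353, 1283, 1515 and 1751 CPM in tumours 1 to 4, against 144, 389, 254 and 293 CPM in luminal cells. The ranges did not overlap. Means were 1417 ± 176 CPM in macrophages and 269.6 ± 123 CPM in luminal cells, and the log2 fold change was 2.76 ± 0.22 (adjusted p = 3.25e-10).

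In T cells Lgals3 was at 1254, 1178, 1288 and 1187 CPM, which is 2.31 ± 0.23 above luminal cells on the log2 scale (adjusted p = 4.22e-08). Macrophages and T cells were not told apart (0.45 ± 0.22, adjusted p = 0.192), except with no count filter (0.000959). Averaged cell by cell, T cells were the higher gate, at 1500 CPM against 1414 CPM in macrophages. The T gate held macrophage markers at 42.8, 32.6, 655 and 332 CPM in tumours 1 to 4, while the same list summed to 10162 to 15170 CPM per mouse in the macrophage gate. Markers of natural killer cells, whose RNA the T gate could also hold, summed to 471, 309, 199 and 178 CPM there in tumours 1 to 4. The part of macrophage and natural killer cell RNA in the Lgals3 level of the T gate was not tested. Thinned to 1000 UMIs, 55.4% to 72.4% of T cells and 53.4% to 61.8% of macrophages held a Lgals3 UMI, against 11.5% to 28.9% of luminal cells. Without thinning the shares were 74.3% to 89.7%, 65.1% to 77.7% and 25.7% to 58.3%.

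Basal cells held 476 ± 178 CPM of Lgals3, which the fit put 0.84 ± 0.22 above luminal cells (adjusted p = 0.0189). The sign depended on which basal cells were counted. Where cells that also met the luminal gate were left out, the value was -0.83 ± 0.28 (adjusted p = 0.0505), with the basal cells of mouse 2 dropped for want of cells. Fibroblasts averaged 207 ± 39.0 CPM and were not called against luminal cells (-0.31 ± 0.23, adjusted p = 0.266). Endothelial cells were lowest, at 162 ± 93.0 CPM, and were called lower than luminal cells (-0.76 ± 0.25, adjusted p = 0.0217), a call lost without tumour 4 (adjusted p = 0.0733) or without mouse 3 (0.0929). Neither luminal and fibroblast cells nor fibroblast and endothelial cells differed beyond their spread as neighbours in the order, although the second pair did where cells of several gates were left out (adjusted p = 0.00306) or with no count filter (0.0326).

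Lgals7 set the epithelium apart. Basal cells held 2819, 332, 3425 and 1369 CPM in tumours 1 to 4, against 784, 35.0, 826 and 369 CPM in luminal cells. Tumour 2 was low in both gates, so the ranges overlapped, although basal exceeded luminal cells within each tumour. The means were 1900.5 ± 1365 CPM in basal cells and 465 ± 386 CPM in luminal cells. With mouse as a block the log2 fold change was 2.34 ± 0.23 (adjusted p = 3.37e-07), or 5.05-fold. The ratio of basal to luminal CPM was 3.60, 9.49 and 4.43 in mice 1 to 3.

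The other gates held less Lgals7 than luminal cells in every mouse. Log2 fold changes were -1.98 ± 0.27 in fibroblasts (adjusted p = 1.32e-06), -1.93 ± 0.29 in endothelial cells (1.26e-05), -1.29 ± 0.24 in macrophages (0.000109) and -1.13 ± 0.29 in T cells (0.00743). None of the neighbours T, macrophage, endothelial and fibroblast differed from the next beyond their spread, but macrophage and endothelial cells did without tumour 2 (adjusted p = 0.00760) or with no count filter (0.000367). In each of these gates the level was lowest in tumour 2. Macrophages held 249.9, 9.25, 253 and 127 CPM in tumours 1 to 4, in the same order of high and low as the luminal cells beside them. Fibroblasts held 110, 12.4, 206 and 127 CPM and endothelial cells 87.4, 18.3, 238 and 155 CPM. In both, tumour 4 lay above tumour 1, unlike in luminal cells. Macrophage Lgals7 was 0.264 to 0.346 of the luminal level per mouse, and the 6 luminal markers, among them Epcam and Krt19, were 0.251 to 0.364 of theirs. In T cells the ratios were 0.310 to 0.452 for Lgals7 and 0.483 to 0.551 for the luminal markers. Fibroblast ratios were 0.140 to 0.354 for Lgals7 and 0.155 to 0.183 for the markers, and endothelial ratios 0.111 to 0.523 and 0.278 to 0.386. Where cells meeting the luminal gate were left out, Lgals7 was lower still, at -2.81 in fibroblasts, -2.60 in endothelial cells and -2.10 in macrophages. Cells under the luminal threshold of 3 UMIs stayed in, so this does not measure luminal RNA below it. The part of luminal RNA in the Lgals7 counts of these gates was not tested.

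**Figure D3:**
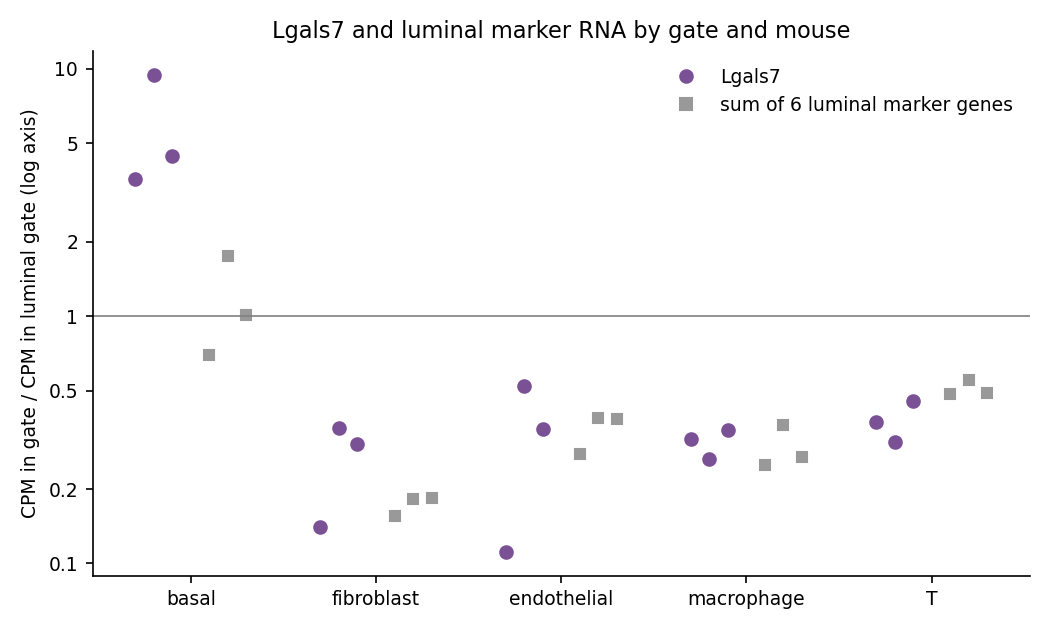
CPM in each non-luminal gate divided by CPM in the luminal gate of the same mouse (log axis), for Lgals7 (circles) and the sum of 6 luminal marker genes (squares), 1 point per mouse. In macrophages the Lgals7 ratios of 0.264 to 0.346 lay in the range of the marker ratios, while in basal cells Lgals7 lay above the markers in every mouse.

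Shares of cells with Lgals7 told the same about the gates. Thinned to 1000 UMIs, 72.1%, 17.1%, 73.7% and 40.1% of basal cells in tumours 1 to 4 held a UMI, against 43.0%, 2.71%, 39.3% and 21.1% of luminal cells. Macrophages, which are not known for this epithelial gene, had 13.3%, 0.593%, 15.0% and 7.75%, a share in which the part of luminal RNA was not tested. Both epithelial gates stood above the macrophage share in every tumour. Median depths were 2949 UMIs in the basal, 3295 in the luminal and 2102 in the macrophage gate, and 10, 98 and 141 cells were too shallow to thin. At the deposited depth the shares ran from 31.0% to 88.5% in basal, 8.41% to 64.4% in luminal and 2.17% to 29.6% in macrophage cells. At least 3 Lgals7 UMIs remained in 8.53% to 56.8% of thinned basal cells, against at most 12.1% of luminal cells and at most 1.85% of macrophages.

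Mouse 3 gave a thoracic and an inguinal tumour, a single pair with no replicate check. The thoracic tumour held more Lgals7 in all 6 gates. In luminal cells the thoracic level was 826 CPM against 369 CPM in the inguinal tumour, a ratio of 2.24 (95% interval 2.18 to 2.30, exact conditional binomial, counting error only). In basal cells it was 3425 against 1369 CPM, a ratio of 2.50 (2.36 to 2.65), and in the other gates the ratio lay between 1.53 and 2.00. Lgals3 went the other way in basal cells, at 426 CPM in the thoracic and 739 CPM in the inguinal tumour (ratio 0.576, interval 0.520 to 0.639). The inguinal basal gate also held more cells with luminal keratins, since 36.9% of thoracic and 68.3% of inguinal basal cells met the luminal gate. Lgals3bp was at 107 CPM in thoracic and 73.2 CPM in inguinal macrophages (ratio 1.47, interval 1.20 to 1.80) but at 20.1 and 31.2 CPM in luminal cells (0.644, interval 0.563 to 0.736). Lgals1 differed less, with ratios between 0.790 and 1.10. The ratio for Lgals9 was 0.711 in luminal cells (interval 0.599 to 0.842) and 0.568 in fibroblasts (0.397 to 0.813), and in the T gate it rested on 10 thoracic UMIs and 1 inguinal UMI.

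Lgals9 was low in every gate and on average highest in macrophages. Macrophages held 99.8, 123, 100.2 and 92.4 CPM in tumours 1 to 4, against 20.3, 35.2, 13.1 and 18.4 CPM in luminal cells. The ranges did not overlap. The log2 fold change was 2.50 ± 0.17 (adjusted p = 1.05e-11). Endothelial cells followed at 94.4 ± 27.6 CPM, 1.77 ± 0.22 above luminal cells (adjusted p = 5.18e-07). Macrophage markers in the endothelial gate summed to 87.4, 586, 632 and 54.7 CPM in tumours 1 to 4, and Lgals9 there was 119, 99.4, 61.1 and 68.9 CPM. The part of macrophage RNA in that level was not tested. Basal cells (1.10 ± 0.20, adjusted p = 0.000911) and fibroblasts (1.10 ± 0.20, adjusted p = 6.03e-05) were also called higher than luminal cells. T cells were not (0.77 ± 0.33, adjusted p = 0.124), with 29 UMIs of the gene in all. In the order, macrophage and endothelial cells differed (0.73 ± 0.21, adjusted p = 0.00914, called in 13 of 17 fits), as did endothelial and basal cells (0.67 ± 0.24, adjusted p = 0.0468, called in 8 of 17). By CPM the first step was small, with means of 106 and 94.4 CPM, and held in 2 of 3 mice. In mouse 1 endothelial cells were at 119 CPM and macrophages at 99.8 CPM. The first call was lost without mouse 3 (adjusted p = 0.178). The second was lost without mouse 3 (0.491), tumour 1 (0.0528), tumour 3 (0.136) or tumour 4 (0.111). Basal, fibroblast, T and luminal cells did not differ beyond their spread as neighbours.

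Lgals3bp was shared by macrophages and fibroblasts. Macrophages held 88.2, 119.6, 107 and 73.2 CPM and fibroblasts 77.9, 116, 79.7 and 87.3 CPM in tumours 1 to 4, against 25.9, 52.1, 20.1 and 31.2 CPM in luminal cells. Both gates lay above every luminal value, and tumour 2 was the highest in each of the 3 gates. Log2 fold changes over luminal cells were 1.87 ± 0.18 in macrophages (adjusted p = 4.31e-09) and 1.51 ± 0.19 in fibroblasts (4.09e-07). Macrophages and fibroblasts were not told apart (0.36 ± 0.19, adjusted p = 0.139), except without cells of several gates (0.0144) or the cells of most UMIs (0.0398). Fibroblasts and basal cells differed (1.29 ± 0.23, adjusted p = 0.000116), a call lost without mouse 3 (0.0709). Basal (0.22 ± 0.22, adjusted p = 0.673), endothelial (-0.20 ± 0.27, 0.641) and T cells (0.41 ± 0.32, 0.450) were not called against luminal cells. Basal, T, luminal and endothelial cells did not differ beyond their spread as neighbours in the order of CPM. The fit put basal cells below T cells (-0.18 ± 0.35, adjusted p = 0.808), against that order. Basal and T cells were called apart where cells of several gates were left out (0.0371). That fit dropped the basal cells of mouse 2 and put basal cells at -1.03 against luminal cells. T cells were at 0.17 or more against luminal cells in every fit.

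Seen from whole tumours, the sources of the UMIs differed from the order of levels, because luminal cells were many. Fibroblasts were 1.98% to 7.76% of cells and held 23.4% to 44.9% of Lgals1 UMIs. Luminal cells held 16.0% to 42.7% of Lgals1 UMIs, more than fibroblasts in tumours 1 and 2. Macrophages were 5.28% to 11.7% of cells and held 12.1% to 36.7% of Lgals3 UMIs and 12.3% to 33.6% of Lgals9 UMIs. Luminal cells held 35.6% to 76.8% of Lgals3 UMIs, less than macrophages in tumour 1 only. Of Lgals9 UMIs they held 27.1% to 73.6%, less than macrophages in tumour 3 only. Basal cells were 1.10% to 5.06% of cells with 3.76% to 19.5% of Lgals7 UMIs, and luminal cells held 51.5% to 73.4% of them. Over all cells Lgals7 was at 775, 40.9, 911 and 376 CPM in tumours 1 to 4, lowest in tumour 2. Cells in no gate were 44.0% of tumour 1 and held 38.5% of its Lgals7 UMIs, and their Lgals7 level there was 859 CPM.

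**Figure D4:**
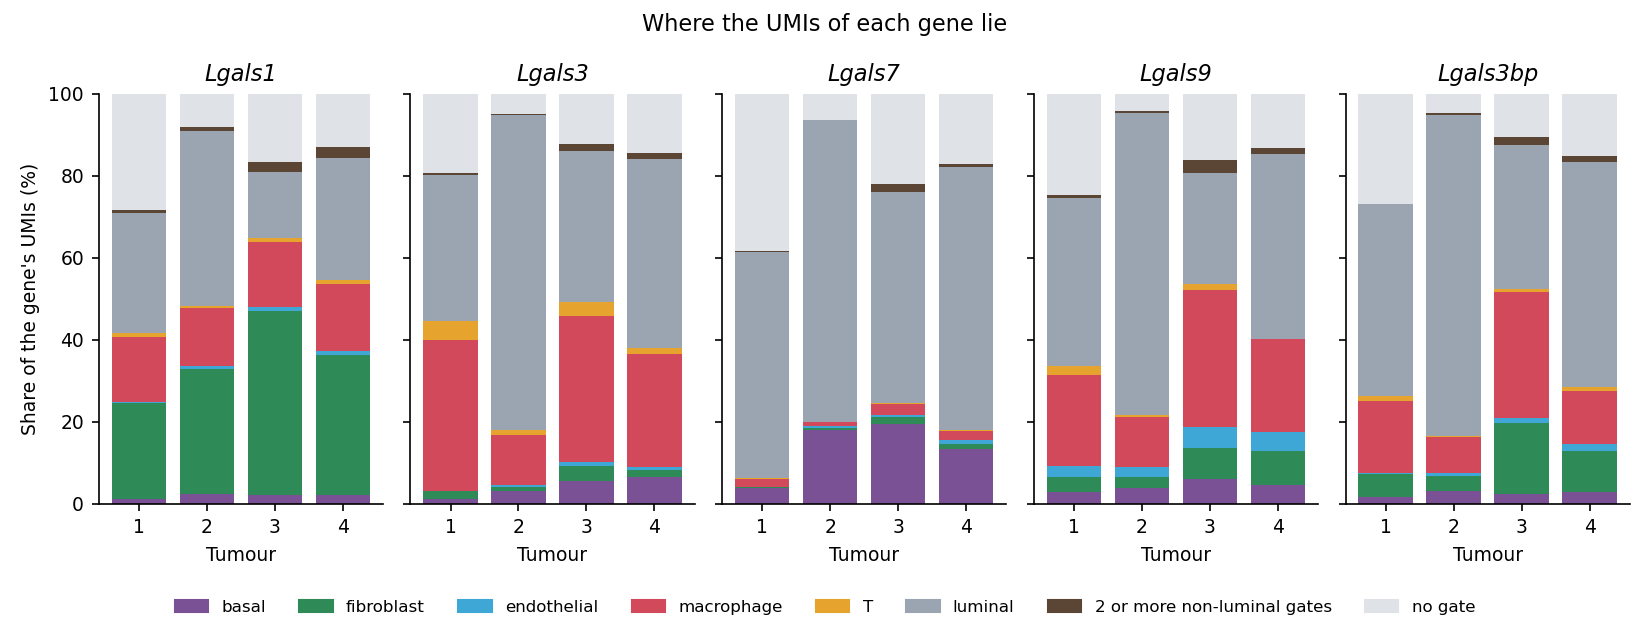
Share of each gene's UMIs (%) by gate in tumours 1 to 4, stacked to 100%. Fibroblasts held 23.4% to 44.9% of Lgals1 UMIs, and luminal cells held 16.0% to 42.7% of Lgals1 and 51.5% to 73.4% of Lgals7 UMIs.

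Within the basal gate, Lgals7 and Lgals3 divided cells that also carried luminal keratins from those that did not. In mice 1, 2 and 3, Lgals7 was at 881, 239 and 916 CPM in basal cells with luminal keratins, against 4701, 2242 and 5677 CPM in those without. Cells with luminal keratins were lower in every mouse, and the ranges did not overlap. For Lgals3 the values were 339, 617 and 786 CPM with luminal keratins and 207, 172 and 126 CPM without. Here the cells with luminal keratins were higher in every mouse. Mouse 2 had 14 cells without luminal keratins and was dropped from the fit, which rests on 2 mice and takes its spread largely from all genes. It gave a log2 fold change of -2.63 ± 0.16 for Lgals7 (adjusted p = 5.84e-57) and 1.94 ± 0.27 for Lgals3 (3.32e-11). Without tumour 3 the Lgals3 value was 1.27 (adjusted p = 0.00135). So 1 gene was called higher and 1 lower, where 4.15% and 4.48% of 4772 genes were. Lgals1, Lgals9 and Lgals3bp were not called. Cells with luminal keratins were deeper, at 3561, 7217 and 4962 UMIs per cell against 1587, 2899 and 2543. Their basal list summed to 581, 619 and 369 CPM, against 1241, 788 and 2029 CPM in cells without luminal keratins. The fibroblast list was also lower, at 19.4, 6.02 and 73.1 CPM against 254, 123 and 623 CPM. Whether such cells are single cells or doublets was not tested.

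Macrophages divide into states by MHC class II, the molecules that present antigen to helper T cells. Cells with at least 3 UMIs of H2-Aa and H2-Ab1 were set against the rest. Lgals1 was at 2386, 1529.9 and 2090.4 CPM in MHC II high macrophages of mice 1 to 3, against 3803, 3408 and 4066 CPM in MHC II low ones. The high cells were lower in all 3 mice without overlap, with a log2 fold change of -0.89 ± 0.09 (adjusted p = 4.75e-05). Lgals3 was at 1159.6, 1109 and 1220.0 CPM in MHC II high cells and 1766, 2083 and 2251 CPM in MHC II low cells (-0.77 ± 0.08, adjusted p = 9.14e-05). These ranges did not overlap either. Of the 5 genes 0 were thus higher and 2 lower, where 0.673% and 1.28% of 7134 genes were. Lgals7, Lgals9 and Lgals3bp were not called. Macrophage markers moved with the split, at 11726, 8769 and 12162 CPM in MHC II high cells and 16401, 16566 and 19994 CPM in MHC II low cells, and their part in the result was not tested.

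Luminal cells with a UMI of Mki67 or Top2a, genes of the cell cycle, held less of all 5 genes. The log2 fold changes against luminal cells without one were -0.33 ± 0.06 for Lgals1, -0.82 ± 0.09 for Lgals3, -0.51 ± 0.08 for Lgals7, -0.72 ± 0.13 for Lgals9 and -0.76 ± 0.12 for Lgals3bp. Each was lower in 3 of 3 mice, with adjusted p between 1.58e-06 and 0.000302. The background is wide, since 16.3% of 13413 genes were higher and 15.7% lower. The largest of the 5 was Lgals3, at 119.9, 204 and 172 CPM in cells with a UMI of these genes and 147, 432 and 297 CPM in those without. Those ranges overlapped between mice. Cells with a UMI of these genes were deeper, at 4668, 6423 and 6288 UMIs per cell against 2900, 3998 and 3814, and their luminal markers were lower too, at 997 to 1029.5 CPM against 1347 to 1382 CPM. The part of depth and of luminal identity was not tested.

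In luminal cells with at least 2 UMIs of the interferon-induced genes Ifit1, Ifit3 and Rsad2, Lgals9 and Lgals3bp were higher. These were few cells, 20, 205 and 74 in mice 1 to 3, against 3578, 7284 and 8769 with none of the 3 genes. Lgals9 was at 225, 141 and 101 CPM with interferon-induced RNA, against 17.5, 29.4 and 13.8 CPM without. Lgals3bp was at 211, 152 and 218 CPM with it and 23.6, 46.2 and 22.2 CPM without. Neither gene overlapped between the arms. The mouse 1 values rest on 16 Lgals9 and 15 Lgals3bp UMIs.

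The log2 fold changes were 2.57 ± 0.18 for Lgals9 (adjusted p = 2.57e-41) and 2.44 ± 0.17 for Lgals3bp (5.24e-44), each higher in 3 of 3 mice. These p-values come from 3 mice, with the spread taken largely from all genes. Lgals7 was lower, at 211, 21.0 and 305 CPM with interferon-induced RNA and 791, 36.2 and 584 CPM without (-1.27 ± 0.22, adjusted p = 7.62e-07). Its ranges overlapped, as tumour 2 was low in both arms. Lgals1 (-0.48 ± 0.19, adjusted p = 0.297) and Lgals3 (0.37 ± 0.19, 0.560) were not called. So 2 of the 5 genes were higher and 1 lower, where 1.27% and 0.431% of 12518 genes were. Macrophage markers differed little between the arms, at 70.4, 40.1 and 80.2 CPM with interferon-induced RNA and 66.5, 44.4 and 76.0 CPM without. Luminal markers were higher with it in every mouse, at 1660.5, 1344 and 1528 CPM against 1341, 1277 and 1297 CPM. T cell markers were at 14.1, 9.11 and 6.87 CPM against 4.89, 3.51 and 6.81 CPM. Cells with interferon-induced RNA were deeper, at 3553, 5355 and 5899 UMIs per cell against 3027, 4228 and 4068. The part of depth and of these markers was not tested.

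**Figure D5:**
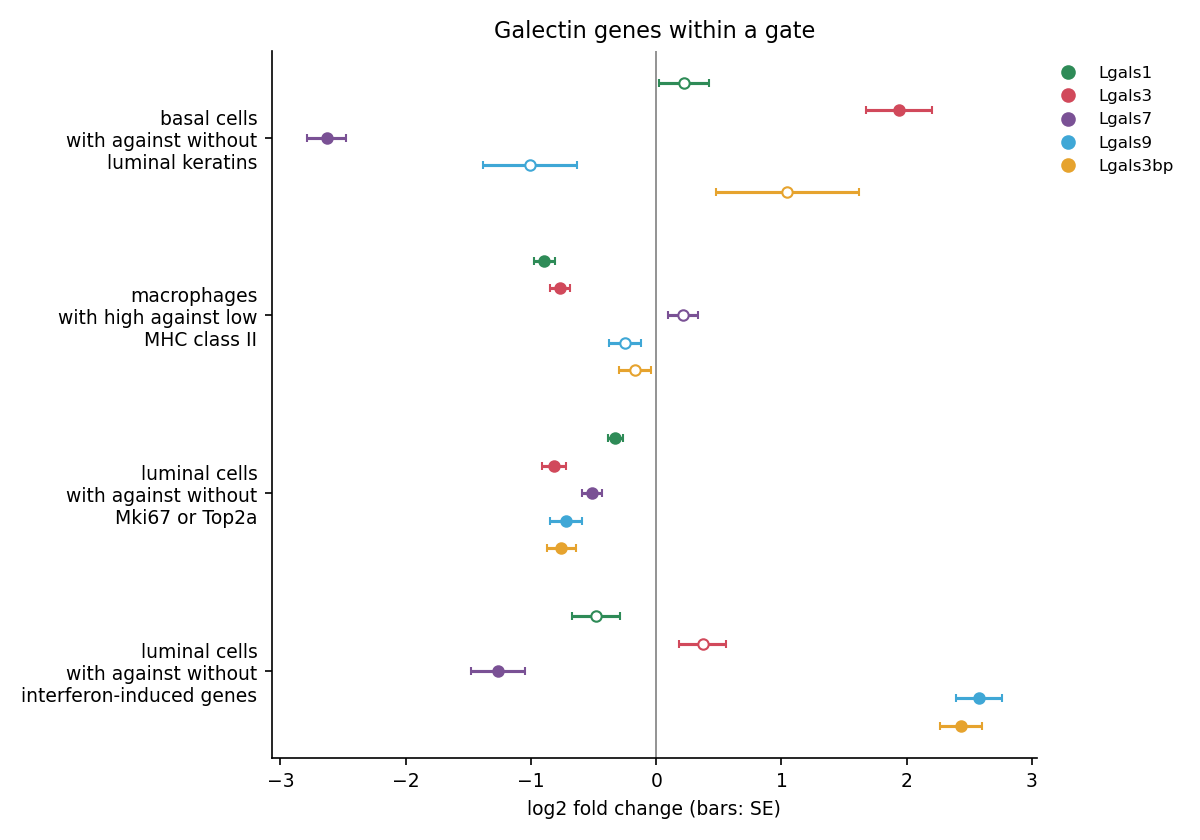
Fitted log2 fold change of each gene within a gate, with standard errors, the first named cells over the others; filled points had an adjusted p under 0.05. Lgals9 and Lgals3bp stood at 2.57 and 2.44 in luminal cells with interferon-induced genes, and Lgals7 at -2.63 in basal cells with luminal keratins.

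Of 6 other galectin genes looked for, 5 had an entry and 3 passed the count filter of the gate fit: Lgals4, Lgals8 and Lgalsl, the last a galectin-like gene. Their mean level was at most 25.4 CPM in any gate. Among macrophages Lgals8 was called higher than in luminal cells (0.70 ± 0.20, adjusted p = 0.00549) and Lgalsl lower (-1.03 ± 0.21, adjusted p = 0.000310). None was called in the other 4 gates.

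A list of 20 genes for galectin ligands, receptors and the enzymes that build their glycans had 18 in the fit. Of these 15 were higher and 1 lower in macrophages than in luminal cells, where 23.3% and 20.4% of all genes were. In fibroblasts 12 were higher and 3 lower, against 26.6% and 22.4% of all genes. Endothelial cells had 5 higher and 0 lower, against 17.9% and 15.1%, and the 5 of 18 lie near that background. In T cells 4 were higher and 2 lower, against 9.68% and 6.92%, and in basal cells 0 and 0, against 4.78% and 2.46%. The list's median log2 fold change was 1.35 in macrophages, 0.74 in fibroblasts, 0.62 in endothelial, 0.14 in T and 0.20 in basal cells, beside medians over all genes of -0.02, -0.01, -0.03, -0.08 and -0.01 in that order. In macrophages the receptor Havcr2, a reported partner of galectin-9, was at 35.0 ± 9.71 CPM against 0.133 ± 0.0376 CPM in luminal cells. The leukocyte glycoprotein gene Ptprc was at 104 ± 3.90 CPM there and 109 ± 25.1 CPM in T cells, against 1.30 ± 0.321 CPM in luminal cells. Nrp1, a co-receptor of vessels and nerves, was at 176 ± 28.9 CPM in endothelial cells, 74.9 ± 3.47 CPM in fibroblasts and 46.5 ± 2.49 CPM in macrophages, against 1.24 ± 0.777 CPM in luminal cells. T cells held Cd7, a galectin-1 receptor, at 1451 ± 331 CPM against 1.49 ± 0.318 CPM in luminal cells. Lag3, an inhibitory receptor, was at 17.2 ± 5.66 CPM in macrophages and 3.62 ± 0.918 CPM in fibroblasts, against 1.17 ± 0.272 CPM in luminal cells. The fibroblast value rests on 16 UMIs, and T cells held 6.80 ± 8.46 CPM on 5 UMIs. Spn, a leukocyte sialoglycoprotein gene, was at 37.5 ± 9.95 CPM in T cells. The fibroblast call for Spn rests on mouse 3, since the fibroblasts of tumours 1 and 2 had 0 UMIs of it.

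Among branching enzymes of N-glycans, endothelial cells held Mgat1 at 67.4 ± 14.6, Mgat4b at 37.4 ± 5.92 and Mgat5 at 18.9 ± 6.35 CPM. Luminal cells held these at 14.7 ± 3.18, 3.79 ± 0.508 and 3.55 ± 0.793 CPM. All 3 were called higher in endothelial cells. Other gates held these genes too, with Mgat5 at 18.5 ± 4.16 CPM in macrophages and Mgat1 at 36.7 ± 5.92 CPM in fibroblasts. Mgat4a, of the same list, was highest in macrophages, at 38.3 ± 3.73 CPM against 22.5 ± 1.46 CPM in endothelial cells. Fibroblasts held Mgat4b at 11.9 ± 3.19 CPM, which was also called higher than in luminal cells. Mgat2 was called lower in T cells, at 10.2 ± 9.36 CPM against 27.3 ± 3.84 CPM in luminal cells (-1.22 ± 0.40, adjusted p = 0.0380). The T value rests on 9 UMIs, and the lowest mouse was at 0 CPM.

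Genes whose log2 CPM ran most alike each member over the 18 sums of mouse and gate were taken from 4550 genes, as a description over points that share mice and libraries. For Lgals1 these were Ebpl, Ier3ip1, Mmp19, Gsn and Fn1, with Pearson's r between 0.89 and 0.95. Lgals3 ran most like AU020206, Scimp, Efhd2, Ptpn6 and Fyb (0.90 to 0.94). The nearest to Lgals7 were Scrg1, Slpi, Rpl37rt, Ndufa11 and Gm5805 (0.85 to 0.88). Lgals9 was nearest to Mef2a, Tgs1, Tspo, Mef2c and Hmox2 (0.78 to 0.82), and Lgals3bp to Tent5a, Itgb5, Hyi, Cd302 and Ifi27l2a (0.81 to 0.86). Among the 5 themselves, Lgals1 and Lgals3bp were the most alike (0.66) and Lgals7 and Lgals3bp the least (-0.35).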

How the data were processed

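Raw UMI counts per gene and barcode were deposited by the authors for 4 droplet libraries; per the submitters' processing notes they were made with Cell Ranger 2.2.0 on mm10 (GRCm38), with FastQC also named. A minimum of 300 genes per barcode and a limit of 15% on mitochondrial UMIs removed 24 barcodes. No doublet caller was run. Alternatives left out cells of several gates or the 5% of cells with the most UMIs per library.

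Counts were summed per mouse and gate, with both tumours of mouse 3 together, where at least 20 cells were present. They were fitted in edgeR 4.0.16 (TMM, filterByExpr, quasi-likelihood F test, Benjamini-Hochberg over all genes of the fit, threshold 0.05) with mouse as a block. Mice pair the sums because the labels name the mouse of each tumour. In simulated data for the gate fits, true log2 changes of 1 were called in 17.4% of genes for T cells, 23.3% for endothelial cells, 33.7% for fibroblasts, 39.3% for basal cells and 43.0% for macrophages, all against luminal cells, and changes of 2 in 68.5%, 75.3%, 90.2%, 89.5% and 97.9%. The simulation gave all genes the same spread, had no differences between mice, and used the same profile in every gate apart from the changed genes. The real sums differ in these respects, so the shares are only a rough guide. A gene that was not called may thus have changed by this much. DESeq2 1.42.0 was an alternative. Cells in 2 or more non-luminal gates or in no gate entered no fit.

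Intervals at 95% are exact Poisson, exact conditional binomial for gland ratios, and cover counting error only. The 5 genes and all lists were chosen with earlier results of these data known. Named list genes are those called with the largest absolute fold change, at most 4 per gate; like genes are the 5 with the highest Pearson's r among genes at 50 CPM or more in a sum. Other alternatives changed the scaling, the count filter, the block, the gate thresholds and order, and left out each tumour and mouse 3. Gene positions come from the GENCODE annotation of GRCm38, the build of the counts.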

Additional observations from a re-analysis of the deposited data

Results flagged for a closer look

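The 4 tumours were compared within each gate and over all cells for each gene, 35 groups in all, and in 2 of them 1 tumour stood far from the other 3. Lgals1 in the macrophage gate of tumour 2 was at 1866 CPM, below the 2781 to 2941 CPM of the other tumours. Lgals9 over all cells of tumour 2 was at 41.0 CPM, above the 26.7 to 27.4 CPM of the others. Chance alone sets apart about 1 in 20 such groups, and tumours 3 and 4 share a mouse.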

How the results depend on the processing

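Of 653 alternative values for 45 results, 612 kept their direction and their side of the threshold. Some of these could hardly move. One setting only put back the few removed barcodes, and all its 45 values stayed. For the basal keratin split, leaving out tumour 2 repeated the reported fit, since mouse 2 was already dropped. The mouse block mattered most: with no replicate block 17 calls were lost. Values then were, against luminal cells, 0.73 for Lgals1, 0.81 for Lgals3, 1.96 for Lgals7 and 1.12 for Lgals9 in basal cells, and for Lgals7 -2.17 in fibroblasts, -2.21 in endothelial cells, -1.34 in macrophages and -1.23 in T cells, and -0.78 for endothelial Lgals3. Within gates, again with no block, they were -0.87 (Lgals1) and -0.77 (Lgals3) by MHC class II, -0.35, -0.82, -0.60, -0.61 and -0.64 for Lgals1, Lgals3, Lgals7, Lgals9 and Lgals3bp by Mki67 or Top2a, and -1.70 for Lgals7 by interferon-induced genes. Adjusted p ran from 0.0519 to 0.888.

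Leaving out cells of several gates gave, in basal cells, 0.51 for Lgals1 (not called), -0.83 for Lgals3 and -1.03 for Lgals3bp (both turned in sign, not called), and -0.48 for fibroblast Lgals3 (called). Basal Lgals3bp was -0.27 without the cells of most UMIs. Doubled thresholds gave -0.51 for fibroblast Lgals3 (called) and 0.030 for endothelial Lgals3bp. The cause of these shifts was not tested. With no count filter fibroblast Lgals3 was -0.52 (called) and endothelial Lgals1 -0.029. DESeq2 gave 0.86 for basal and -0.76 for endothelial Lgals3, both not called. Endothelial Lgals3 was also not called with gates in listed order (-0.55) or library size only (-0.61). The last choice, made after seeing the data, called Lgals3 by interferon-induced genes (0.42) and moved the median of all genes to -0.29 in macrophages. With tumours as 4 samples Lgals1 was -0.0053 by basal keratins and -0.55 by interferon-induced genes (called).

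Leave-one-out ranges, with a call that changed, were 0.59 to 0.90 for basal Lgals1 (lost without tumour 1), 0.72 to 0.97 for basal Lgals3 (lost without mouse 3), -0.17 to 0.65 for basal Lgals3bp (never called, below 0 without tumour 2), -0.56 to -0.18 for fibroblast Lgals3 (called without tumour 1), -0.93 to -0.61 for endothelial Lgals3 (lost without tumour 4 or mouse 3), 0.35 to 1.08 for T-cell Lgals9 (called without tumour 4), and -1.60 to -0.81 for Lgals9 by basal keratins (called without tumour 3). Endothelial Lgals7 was -2.71 without mouse 3, and Lgals3bp by interferon-induced genes 3.09 without tumour 2. The basal keratin split could not be fitted without tumour 1 or mouse 3, which leave 1 mouse.

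Counts of called genes moved by over 1.5 times as follows. Against luminal cells, basal calls were 747 in the fit as reported, 301 with no replicate block, 1171 with no count filter, 1223 without cells of several gates, and 161 to 492 without tumour 1, tumour 3 or mouse 3. Without mouse 3 calls were 2821 against 5060 in fibroblasts, 1920 against 3404 in endothelial cells, 2514 against 4509 in macrophages and 750 against 1712 in T cells. By basal keratins they were 412 as reported, 125 with no block, 54 by DESeq2 and 170 without tumour 3. By MHC class II they were 139, 13 with no block, 59 by DESeq2, 212 with no count filter, 258 with tumours as 4 samples, and 76, 220 and 271 without mouse 3, tumour 2 and tumour 1. By Mki67 or Top2a they were 4298, 607 with no block and 2320 by DESeq2. By interferon-induced genes they were 213, 72 with no block, 113 by DESeq2, 320 with library size only, and 85 to 349 without tumour 1, 2 or 4 or mouse 3. Under library size only the higher and lower calls were 1813 and 3719 in macrophages, against 2403 and 2106 as reported, 2201 and 1143 in endothelial cells, against 1848 and 1556, and 254 and 175 by basal keratins, against 198 and 214.

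Shares of cells with a UMI moved with depth in 25 of 30 cases. T cells gave only 29 Lgals9 UMIs, so small differences there were not detectable at this depth.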
